A study of Rattus norvegicus with 56 samples.

Results

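Interferon signalling and antigen presentation were followed in the dorsal striatum of rats through 9 genes: Stat2, Irf1, Irf7, Irf9, Psmb8, Psmb9, Tap1, B2m and Cd74. They were chosen by name, as every probe set whose annotated symbol equals one of these 9 genes, which gave 13 of the 31042 probe sets of the array that are not controls. The array's annotation names 14218 genes in all. Expression was measured on Affymetrix Rat230_2 arrays, with 1 array for each of 56 male Sprague Dawley rats (Crl:OFA). All values are log2 signals, so a difference of 1 is a 2-fold change.

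Lesioned rats carried a bilateral loss of nigral dopamine neurons, induced by an AAV vector that overexpresses alpha-synuclein, and sham rats received the same vector expressing GFP. All rats had therefore received the viral vector, and no rat without a vector was analysed here. Daily treatment began 5 weeks later and lasted 3 weeks, either with the methyl ester of L-dopa at 50 mg/kg and benserazide or with saline. Place conditioning followed, in sessions of 40 min, with the D2/D3 receptor agonist pramipexole (2 mg/kg, "ppx" in the group names) or with saline only. The rats were killed 24 or 48 h after the last dose. The 8 combinations held 7 rats each and are named by model, treatment and conditioning, for example Lesion L-dopa ppx. The promoter that drives the vectors and the ages of the rats are not given in the sources used here.

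Interferons signal through cell surface receptors and JAK kinases. Type I interferons activate a complex that contains STAT2 and IRF9 and binds interferon-stimulated response elements (ISREs), and interferon gamma acts through GAS elements. IRF1 and IRF7 are transcription factors that are themselves interferon-induced and carry the response further. PSMB8 and PSMB9 are catalytic subunits of the immunoproteasome, which cuts proteins into peptides. TAP1 is a chain of the pump that carries these peptides into the endoplasmic reticulum, and B2M is the invariant light chain of the class I molecules that display them. CD74, the invariant chain, escorts class II molecules, which in the brain are carried mainly by activated microglia and by immune cells that enter from the blood.

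Promoter stretches of 5 of the genes are shown because they hold the letters these factors recognise. They come from RefSeq (rat build GRCr8), in windows from 250 bases before to 50 bases after each gene's start, which were found for all 9 genes. The ISRE core searched was GAAANNGAAA and the GAS core TTCNNNGAA, on both strands, where N is any base. Each stretch below has 100 bases, read 5′ to 3′ on the gene's strand, with the match in capitals.
Tap1, ISRE core, chr20:4668610-4668709, minus strand: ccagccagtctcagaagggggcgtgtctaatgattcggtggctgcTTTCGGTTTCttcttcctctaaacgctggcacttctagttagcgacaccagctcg
B2m, ISRE core, chr3:129549135-129549234, plus strand: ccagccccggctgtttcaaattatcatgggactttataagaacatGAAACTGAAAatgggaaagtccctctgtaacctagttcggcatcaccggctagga
Irf7, ISRE core, chr1:205800038-205800137, minus strand: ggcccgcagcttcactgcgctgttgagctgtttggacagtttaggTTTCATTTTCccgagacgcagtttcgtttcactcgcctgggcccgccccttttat
Irf1, GAS core, chr10:38417747-38417846, plus strand: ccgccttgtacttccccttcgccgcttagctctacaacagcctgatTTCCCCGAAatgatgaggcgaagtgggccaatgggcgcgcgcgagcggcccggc
Irf9, GAS core, chr15:33065691-33065790, plus strand: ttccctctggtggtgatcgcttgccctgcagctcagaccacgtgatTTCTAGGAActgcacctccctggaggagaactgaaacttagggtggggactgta

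An ISRE core was present in 4 of the 9 promoters (Irf7, Psmb8, Tap1 and B2m), beside 3.92% of all 33469 promoter windows in the table. A GAS core was present in 3 of 9 (Irf1, Irf9 and Psmb8), beside 8.87% of all windows. The Psmb8 window held both, with the ISRE core across the start itself (bases -4 to 5) and the GAS core at bases -245 to -237. Neither set of letters was in the windows of Stat2, Psmb9 or Cd74. Psmb8, Psmb9 and Tap1 lie side by side on chromosome 20. Tap1 and Psmb9 are read in opposite directions from starts 457 bases apart, so the ISRE core shown for Tap1 also lies upstream of Psmb9, 336 bases before its start. These matches describe letters and do not show that a factor binds there.

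The probe set of highest signal stands for each gene, and any other is called its second. B2m had a mean signal of 11.32 over all rats, and the other genes that passed the filter had means between 5.67 and 6.67. A probe set was tested if its mean signal over all 56 rats was above the 40th percentile (4.99). Of the 13 probe sets, 11, for 8 of the 9 genes, passed this filter. Both Tap1 probe sets were below it, with means of 2.95 and 0.90, so Tap1 is given as values without a test. Signals of different genes come from different probes and cannot be ranked as amounts of RNA. The labelled tissue was checked with markers of striatal spiny neurons: Penk, Drd1 and Ppp1r1b were at least 11.86, 10.25 and 9.63 in each rat. The difference between 3′ and 5′ control probes, a sign of RNA quality, had group means from 0.80 to 1.01 log2 units.

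One rat stood apart before any group was compared. Rat 2, of the group Lesion L-dopa ppx, had the highest value of all 56 rats on 12 of the 13 probe sets. The exception was the Tap1 probe set of lowest signal, on which rat 2 was at rank 21. Over all 18625 tested probe sets rat 2 was the highest rat on 6.43%, and the other 55 rats were highest on between 0.639% and 6.65%. What set rat 2 apart was the size of the gap. On 153 tested probe sets it lay more than 1 log2 unit above every other rat, whereas no other rat did so on more than 5 (median 0). Most comparisons of groups that include rat 2 are therefore given with and without it.

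**Figure D1:**
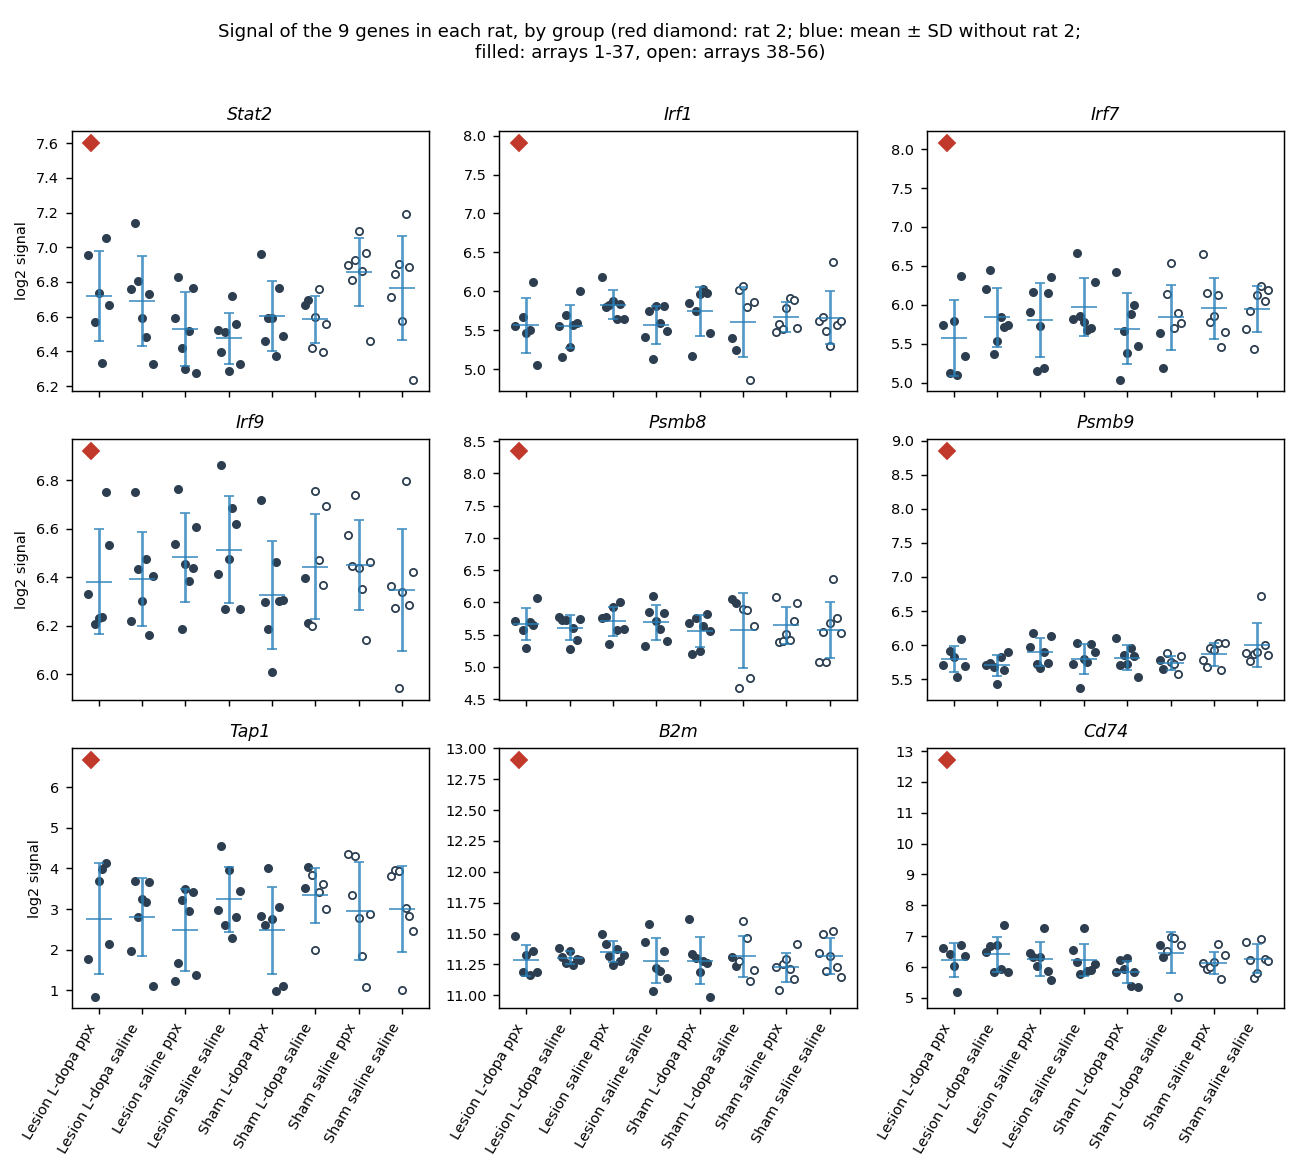
Log2 signal (y axis, its own range in each panel) of the 9 genes in each rat, by group (x axis), for the probe set of highest mean signal. Points are rats, filled for arrays 1 to 37 and open for arrays 38 to 56, the red diamond is rat 2 and blue bars are the group mean ± SD without it. Rat 2 is the highest point in each of the 9 panels.

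Cd74 had the largest gap. In the group of rat 2 its values were 6.60, 12.73, 6.41, 6.03, 5.20, 6.71 and 6.35 for rats 1 to 7. The other 55 rats had a mean of 6.23 ± 0.51 (SD) and a highest value of 7.35, so rat 2 was 90.5-fold above their mean. The other 55 rats spanned 5.04 to 7.35, so the gap between rat 2 and the next rat, 5.38 log2 units, was wider than their whole range.

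The immunoproteasome subunits and the peptide pump came next. The other rats of its group lay between 5.53 and 6.09 for Psmb9, which had a value of 8.85 in rat 2 against 5.83 ± 0.21 (SD, 55 rats; highest 6.72), which was 8.13-fold. Psmb8 had a value of 8.35 against 5.63 ± 0.32 (highest 6.36), which was 6.58-fold. The brighter Tap1 probe set had a value of 6.68 in rat 2, above the filter, against 2.89 ± 1.01 (highest 4.57). The low signals of the other rats are near the bottom of the scale, and no fold is given for it. B2m, with a high signal in every rat, was 12.91 against 11.30 ± 0.14 (highest 11.62), which was 3.06-fold, and its second probe set was 3.97-fold higher.

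Among the transcription factors, Irf1 and Irf7 stood well clear of the other rats and Irf9 barely did. Irf1 had a value of 7.91 in rat 2 against 5.65 ± 0.30 (SD, 55 rats; highest 6.38), or 4.79-fold. Irf7 had a value of 8.08 against 5.83 ± 0.40 (highest 6.67), or 4.76-fold. The probe sets of Stat2 were 1.93-fold and 2.42-fold above the mean of the others, and above their highest by 0.41 and 0.93 log2 units. Those of Irf9 were 1.42-fold and 1.61-fold above the mean, and above the highest other rat by no more than 0.16.

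The genes around these 9 in the same pathways were mostly higher in rat 2 as well. Of the interferon-induced effectors, 24 of the 33 on the array were above all 55 other rats, with a median difference of 1.34 log2 units from their mean. Only 21 of the 33 passed the filter, and averaged over these rat 2 was 1.39 above the mean of the others. The mean used by the filter includes rat 2, and Irgm passed only through it (6.90 in rat 2 against a mean of 4.97). The median over all tested probe sets was -0.029. Lgals3bp, a secreted glycoprotein, was 9.37 in rat 2 against a mean of 5.26. Mx1, an antiviral GTPase, was 8.87 in rat 2, while its mean over all rats was below the filter. Gbp2, an interferon-induced GTPase, was 8.55 against 5.36, and Bst2, which tethers budding virus, 9.30 against 6.66. Not every inducible gene followed: Ifit1 was 4.53 in rat 2 against a mean of 4.70, and the chemokine Cxcl9, low in all rats, was 0.58 against 2.66. Ifit1 and Cxcl9 were also below the filter.

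Of the genes for interferon receptors and signalling, 7 of 15 on the array were above all other rats. They included Irf8, a myeloid transcription factor (8.23 against a mean of 5.75), Irf5, which was below the filter (6.22 against 4.38), and both interferon gamma receptor chains, Ifngr1 (9.74 against 8.22) and Ifngr2 (8.87 against 7.63). The type I receptor chains Ifnar1 and Ifnar2 and the kinases Jak1 and Jak2 lay within the range of the other rats. Ifnar2 was at rank 2 in rat 2, and the kinase Tyk2 was above all other rats (7.22 against a highest of 7.04).

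Antigen presentation genes of both classes were high in rat 2. For class I, 11 of 14 genes on the array were above all other rats, with a median difference of 1.10 log2 units from their mean, among them Psme1, a proteasome activator subunit (10.19 against 8.30), and the peptide-trimming enzyme Erap1 (9.30 against 7.67). RT1-S3, a class I heavy chain, was 8.66 against 6.93; rat RT1 genes include near-identical copies, so the array may not separate them. For class II, 8 of 12 were above all other rats, with a median difference of 1.69. Both medians include genes below the filter, which 12 of the 14 class I and 7 of the 12 class II genes passed. Whether the classes differ was not tested. RT1-Da, a chain that Cd74 escorts, was 12.50 in rat 2 against a mean of 6.05, a difference of 6.45 log2 units beside 6.50 for Cd74. The class II chains RT1-Ba, RT1-Bb and RT1-Db1 were 11.96, 10.91 and 11.15 in rat 2. Their means over all rats were below the filter, so no single difference is given for them. Rfx5 and Rfxap, factors that drive class II genes, lay within the range of the other rats. Ciita, the class II transactivator, also below the filter, was 5.10 in rat 2, with 2.36 to 5.22 in the others.

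Markers of other cells moved with these genes in rat 2. All 14 microglial markers on the array were above all other rats, by 1.44 to 4.34 log2 units over the mean. These included P2ry12 and Tmem119, which mark resident microglia (9.94 against 8.35, and 8.29 against 6.48). Averaged over the 11 that were tested, the microglial list was 2.80 above the mean of the other 55 rats, whose own scores spanned -0.27 to 0.45. Of the general leukocyte markers, 4 of 5 were above all other rats, Ptprc (CD45) by the most, at 8.26 against 5.50. Of 12 markers of T, B and NK cells, only Cd79b was above the others (4.16 against a highest of 3.80), and all 12 were below the filter. None of 6 markers of perivascular and border macrophages, 4 of blood cells, 7 of spiny neurons, 8 of astrocytes or 5 of oligodendrocytes was above the range of the other rats. Of 7 endothelial markers Pecam1 was above it (6.00 against a highest of 5.61). Gfap, the astrocytic filament gene, was at rank 3 of 56 (10.52 against a mean of 9.60). The part of microglia or of entering leukocytes in the values of the 9 genes was not tested. In bulk tissue, more cells of a type and more RNA per cell cannot be told apart.

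**Figure D2:**
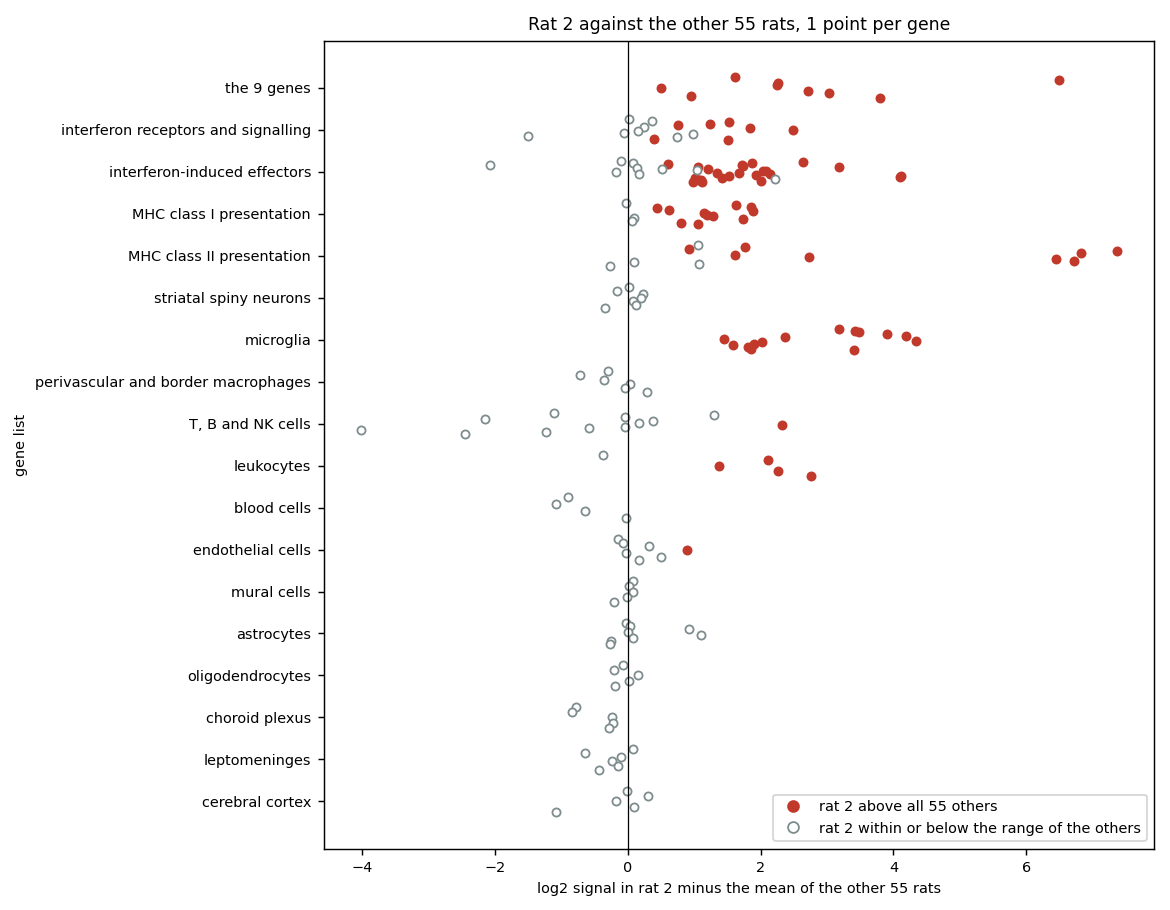
Difference of rat 2 from the mean of the other 55 rats (x axis, log2 signal), with 1 point per gene in 18 rows: the 9 genes, 4 pathway lists and 13 marker lists (y axis). Red points lie above all 55 other rats; the microglial row is red throughout (14 of 14), whereas spiny neurons, oligodendrocytes and blood cells have no red point.

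Without rat 2 the highest and lowest of the 8 group means of a tested probe set were between 0.13 (B2m) and 0.62 (Cd74) log2 units apart. The pooled SDs within groups were 0.14 and 0.51 for these. Against this spread the distance was largest for the brighter probe set of Stat2 (0.38, SD 0.22) and the second of B2m (0.33, SD 0.19). Cd74 had its lowest mean in Sham L-dopa ppx (5.84 ± 0.37) and its highest in Sham L-dopa saline (6.45 ± 0.66, SD, n = 7 each), with medians of 5.84 and 6.70 and overlapping ranges of 5.35 to 6.29 and 5.04 to 6.96. Stat2 ran from 6.47 ± 0.15 in Lesion saline saline to 6.86 ± 0.20 in Sham saline ppx. Between neighbours in the order of the 8 group means the widest gap of any tested probe set was 0.30 log2 units (Cd74), and each such gap was below the pooled SD within groups. Small gaps between ordered neighbours do not show that the groups are alike. Psmb8 had the flattest profile relative to its spread, with group means from 5.56 to 5.71 and a pooled SD of 0.33. The 2 Tap1 probe sets scattered most, with pooled SDs of 1.03 and 1.11.

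Drug effects were tested inside the array numbers that share a level. Values of some other probe sets of the array step between arrays 37 and 38, a boundary that the labels do not name. Arrays 1 to 37 hold all 28 lesioned rats, the Sham L-dopa ppx rats and 2 Sham L-dopa saline rats, and arrays 38 to 56 hold the other 19 sham rats. For the tested probe sets of the 9 genes, the means of the 2 sets without rat 2 differed by -0.20 (Irf7) to 0.12 (Psmb8), which mixes different groups. Sham L-dopa saline alone has rats in both sets, 2 and 5, and within it the sets differed by more, from -0.59 (Irf7) and -0.40 (Irf1) to 0.64 (Psmb8). In each comparison below limma was fitted to all 18625 tested probe sets, with Benjamini-Hochberg adjustment and a call at an adjusted p under 0.05. Unless left out, rat 2 enters the spread of every fit that holds arrays 1 to 37, even where neither group compared holds it. Comparisons that share a group are not independent of each other.

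L-dopa in lesioned rats (14 against 14) gave no call among the 11 probe sets, in a comparison that called 0.0215% of all probe sets (4 of 18625). Stat2 came closest. Its brighter probe set spanned 6.33 to 7.60 in treated rats and 6.28 to 6.83 in the others. The means were 6.77 and 6.50 and differed by 0.27 ± 0.09 (SE; adjusted p = 0.342), and 11 of 14 treated rats were above the untreated mean. Its second probe set differed by 0.20 ± 0.09 (adjusted p = 0.450; 13 of 14 rats). The ranges overlapped for both. Without rat 2, where 0.0161% of all probe sets were called, these differences were 0.20 ± 0.08 and 0.12 ± 0.06. The count of all 11 probe sets that were higher went from 9 with rat 2 (median 0.12) to 4 without it (median -0.063), beside a median of 0.0079 over all tested probe sets.

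The same comparison within each conditioning group gave no call either. In saline-conditioned lesioned rats (background 0.0107%), 6 of 11 were higher with L-dopa, with a median of 0.020. In pramipexole-conditioned lesioned rats (background 0%), 10 of 11 were higher (median 0.25), but 3 of 11 without rat 2 (median -0.066). B2m's second probe set was then lower with L-dopa by 0.23 ± 0.10 (adjusted p = 0.999), where it had been higher by 0.06 with rat 2.

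Pramipexole in lesioned rats (14 against 14) called none of the 11 probe sets and 0% of all probe sets, with 1165 at an unadjusted p under 0.05. Of the 11, 9 were higher (median 0.14), and 6 without rat 2 (median 0.026), where again 0% of all probe sets were called. In lesioned rats without L-dopa (background 0.0107%) the differences of the 11 ran from -0.16 (Irf7) to 0.26 (Irf1). All 7 pramipexole rats were above the mean of the saline rats for Irf1 (5.83 against 5.57, adjusted p = 0.834) and for the second probe set of B2m (9.53 against 9.31, adjusted p = 0.823), with overlapping ranges. Rat 2 is in neither group but in the spread of this limma fit. With it left out, the smallest adjusted p of the 11 was 0.669. In lesioned rats given L-dopa (background 0%) all 11 were higher with pramipexole. The largest was Cd74, at 0.74 ± 0.60 (adjusted p = 0.897), followed by Psmb9 at 0.53 ± 0.28 and Psmb8 at 0.44 ± 0.26 (both adjusted p = 0.876). Without rat 2 only 5 of 11 were higher, the median moved from 0.21 to -0.0034, and Cd74 was lower by 0.19 ± 0.27. The interaction of the drugs (background 0%) changed likewise, from 10 of 11 above 0 (median 0.23) to 4 of 11 (median -0.027).

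The lesion was compared inside the lower array numbers in rats given both drugs. This comparison called 0.00537% of all probe sets (1 of 18625) and none of the 11. All 11 were higher in lesioned rats (median 0.24), with Cd74 at 7.15 against 5.84, a difference of 1.31 ± 0.60 (adjusted p = 0.768). Without rat 2, 7 of 11 were higher (median 0.056) and the difference of Cd74 was 0.38 ± 0.27 (adjusted p = 0.979). Psmb9 went from 0.42 ± 0.28 to -0.02 ± 0.10. Irf1 went from 0.15 ± 0.24 to -0.18 ± 0.15.

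Over all rats (28 against 28) the lesion called 5.07% of all probe sets and none of the 11. The second probe set of B2m had the smallest adjusted p, 0.210, at 9.45 against 9.27, a difference of 0.18 ± 0.08 with 22 of 28 lesioned rats above the sham mean (0.11 ± 0.05 without rat 2, where 4.74% of all probe sets were called and again none of the 11). Within arrays 1 to 37, in 14 lesioned and 9 sham rats that all had L-dopa, its difference was 0.28 ± 0.17 (adjusted p = 0.898), and 0.14 ± 0.09 without rat 2. In rats given neither drug the lesion called 1.07% of all probe sets and none of the 11. Here the brighter Stat2 probe set was lower in lesioned rats by 0.29 ± 0.13 (adjusted p = 0.296; 0 of 7 above the sham mean), whereas its second probe set was higher by 0.12 ± 0.12, so the gene has no settled direction. These comparisons run almost or wholly along the step between array numbers, and the lesion and the array set cannot be told apart in rats given neither drug.

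In sham rats, where rat 2 plays no part, neither drug gave a call. Pramipexole in rats without L-dopa (background 0%) left 6 of 11 higher, with a median of 0.0019 and differences from -0.14 (Psmb9) to 0.16 (Stat2, second probe set). L-dopa in saline-conditioned rats (background 0%, 5 against 7 rats) left 6 of 11 higher, from -0.25 (Psmb9) to 0.17 (Cd74). For Psmb9, the second probe set of Irf9 and the brighter one of Stat2, 0 of the 5 L-dopa rats were above the mean of the 7 others. The differences were -0.25 ± 0.13, -0.24 ± 0.13 and -0.22 ± 0.13 (adjusted p = 0.813, 0.819 and 0.823), with overlapping ranges. Rat 54, in the Sham saline saline group of both sham comparisons, was the highest rat apart from rat 2 on each of these probe sets. For Psmb9 it was 6.72, where that group had a mean of 6.00 and a median of 5.88. The part of rat 54 in these differences was not tested. The probe sets of Irf9 disagreed, since the brighter one was higher by 0.15 ± 0.12. Whether the drugs act differently in lesioned and sham rats was not tested, since the groups that would be needed lie in different array sets.

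**Figure D3:**
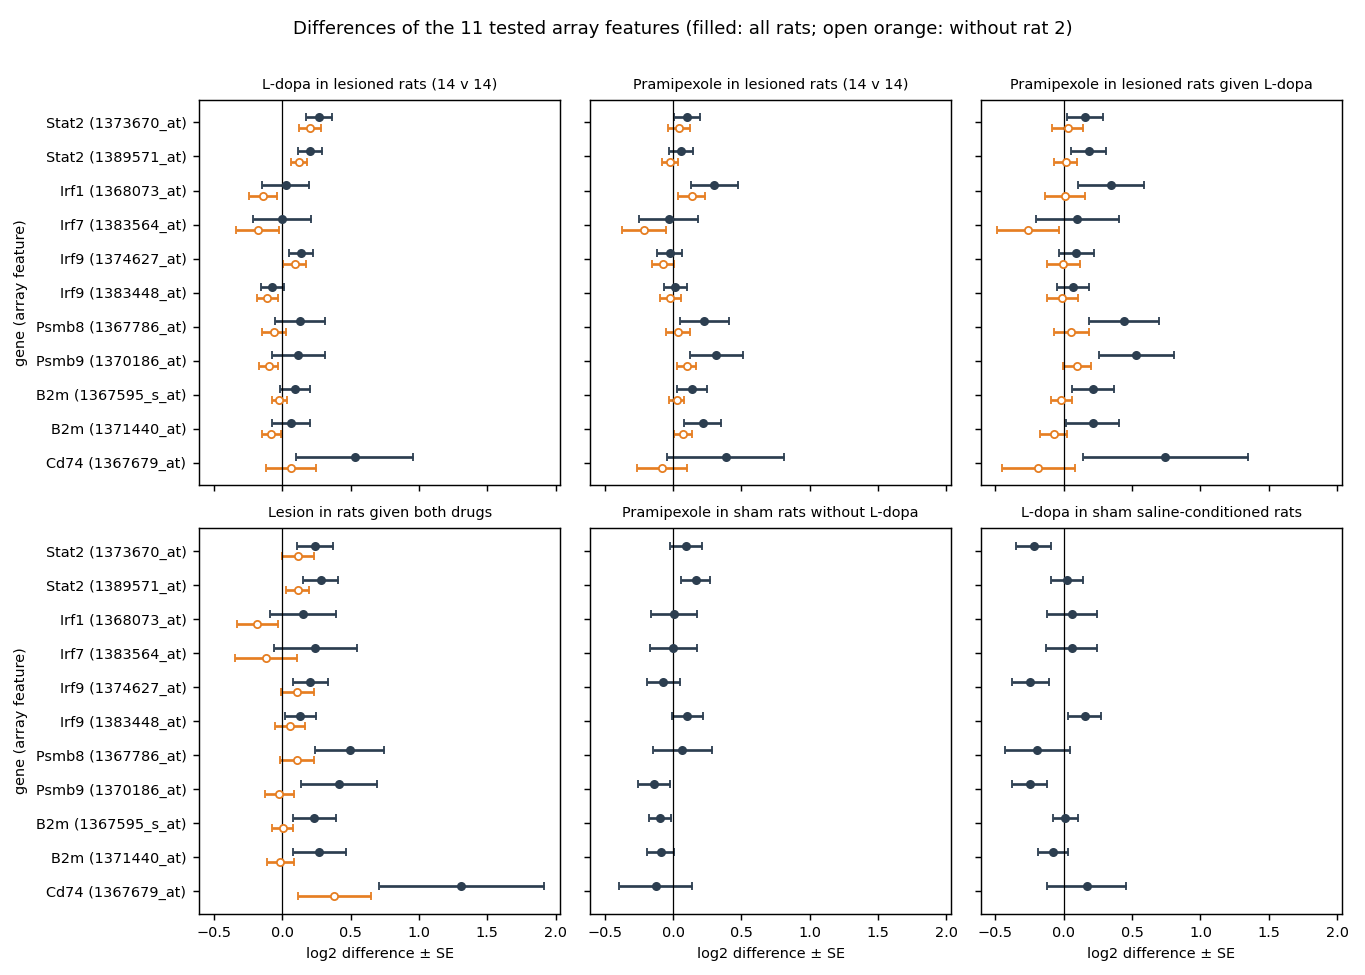
Log2 difference ± SE (x axis) of the 11 tested probe sets (y axis) in 6 comparisons, filled for all rats and open orange without rat 2; sham comparisons hold no rat 2. In the 4 panels that hold rat 2 the orange points lie to the left of the filled ones, and the error bar of Cd74 is the widest wherever rat 2 is included.

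The wider pathways gave few calls. Of 21 tested interferon-induced effectors, 0 were called in any of the 12 comparisons. In lesioned rats given L-dopa 18 of 21 were higher with pramipexole, with a median of 0.23, and 13 of 21 without rat 2, with a median of 0.033. In saline-conditioned lesioned rats, whose groups do not hold rat 2, 4 of 21 were higher with L-dopa (median -0.13, beside 0.0075 over all tested probe sets). Those of smallest p were Ifit2 and Parp9, at -0.38 and -0.33 (adjusted p = 0.459 and 0.510). With rat 2 left out of the spread of the limma fit, their adjusted p were 0.275 and 0.252. In the same comparison 0 of 7 spiny neuron markers (median -0.11) and 4 of 4 cerebral cortex markers (median 0.60) were higher, none called, and their part in the result was not tested. Of 12 tested genes for receptors and signalling and 7 for class II presentation, 0 were called in any comparison. The 7 class II genes were all lower with pramipexole in sham rats (median -0.069), none of them called. In that comparison 0 of 7 astrocyte markers (median -0.082), 0 of 5 oligodendrocyte markers (median -0.13) and 1 of 4 leukocyte markers (median -0.13) were higher. The part of these markers in the class II result was not tested. Its reference group, Sham saline saline, holds rat 54. Averaged over the 7 class II genes, rat 54 was 0.59 above the mean of the 55 rats without rat 2. Its group averaged 0.054 (SD 0.25) and Sham saline ppx -0.069. The part of rat 54 in the class II result was not tested either. Of 12 for class I presentation, RT1-M3-1, a class I heavy chain gene, was called in 2 comparisons. It was lower in lesioned rats by 0.15 ± 0.04 over all rats (adjusted p = 0.037), where 5.07% of all probe sets were called. In rats given neither drug it was lower by 0.33 ± 0.09 (adjusted p = 0.046), where 1.07% were called. Both comparisons run along the step between array numbers, and no probe set was called in either with the array set as a block. That block is estimated from Sham L-dopa saline alone, the only group in both sets, so the lack of calls cannot separate lesion and array set. The sign of RNA quality also moved with the lesion in rats given neither drug, with means of 0.81 in lesioned and 1.01 in sham rats, and its part was not tested for this gene. Its value in rat 2 (6.77) was near the mean of the others (6.67).

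Microglial markers followed the same course as the 9 genes when rat 2 was left out. In lesioned rats given L-dopa all 11 tested markers were higher with pramipexole (median 0.52), and 6 of 11 without rat 2 (median 0.041). With the lesion in rats given both drugs the counts were 11 of 11 (median 0.49) and 6 of 11 (median 0.043). None was called in either comparison.

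The genes still varied together among the other 55 rats. Correlations were computed over these rats after subtracting the mean of each group within its array set, for the 36 pairs of the 9 genes. Of these, 33 were positive, with a median r of 0.26, and with rat 2 included the median was 0.54. For 9 pairs both Pearson's r and Spearman's rho had an adjusted permutation p under 0.05 (100000 two-sided resamples within groups, adjusted over the 36 pairs). All 9 were positive in each array set, with r between 0.30 and 0.61 in the 36 rats of arrays 1 to 37 and between 0.20 and 0.63 in the 19 rats of arrays 38 to 56.

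The strongest pair was Irf9 and Psmb9, with r = 0.59 and rho = 0.49 (permutation adjusted p = 9e-04 and 0.0079). It was 0.61 in arrays 1 to 37 and 0.55 in arrays 38 to 56, and 0.46 without the rats farthest from the median, rats 29 and 54. Irf1 and Psmb9 followed with r = 0.57 and rho = 0.50 (permutation adjusted p = 0.0011 and 0.0079; 0.44 without rats 41 and 54). The interferon regulatory factors Irf7 and Irf9 had r = 0.55 and rho = 0.45 (permutation adjusted p = 9e-04 and 0.010; 0.46 without rats 6 and 29). Psmb9 and B2m, both of class I presentation, had r = 0.51 and rho = 0.46 (permutation adjusted p = 0.0015 and 0.0081; 0.41 without rats 24 and 54).

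The other 5 pairs were Irf9 with Psmb8 (r = 0.48) and with B2m (0.47), Irf7 with Psmb9 (0.43), B2m with Cd74 (0.43) and Stat2 with B2m (0.36). The last of these and B2m with Cd74 lay below the 95th percentile of the r of B2m with all tested probe sets (0.46), which was 0.24 to 0.33 for the other genes. Irf7 with Psmb9 differed most between the sets, with r = 0.56 in arrays 1 to 37 and 0.20 in arrays 38 to 56. Psmb8 and Psmb9, which work in the same complex, had r = 0.24 and were not among the 9 pairs. The 8 pairs with Tap1 had r between -0.17 and 0.14, at signals below the filter.

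**Figure D4:**
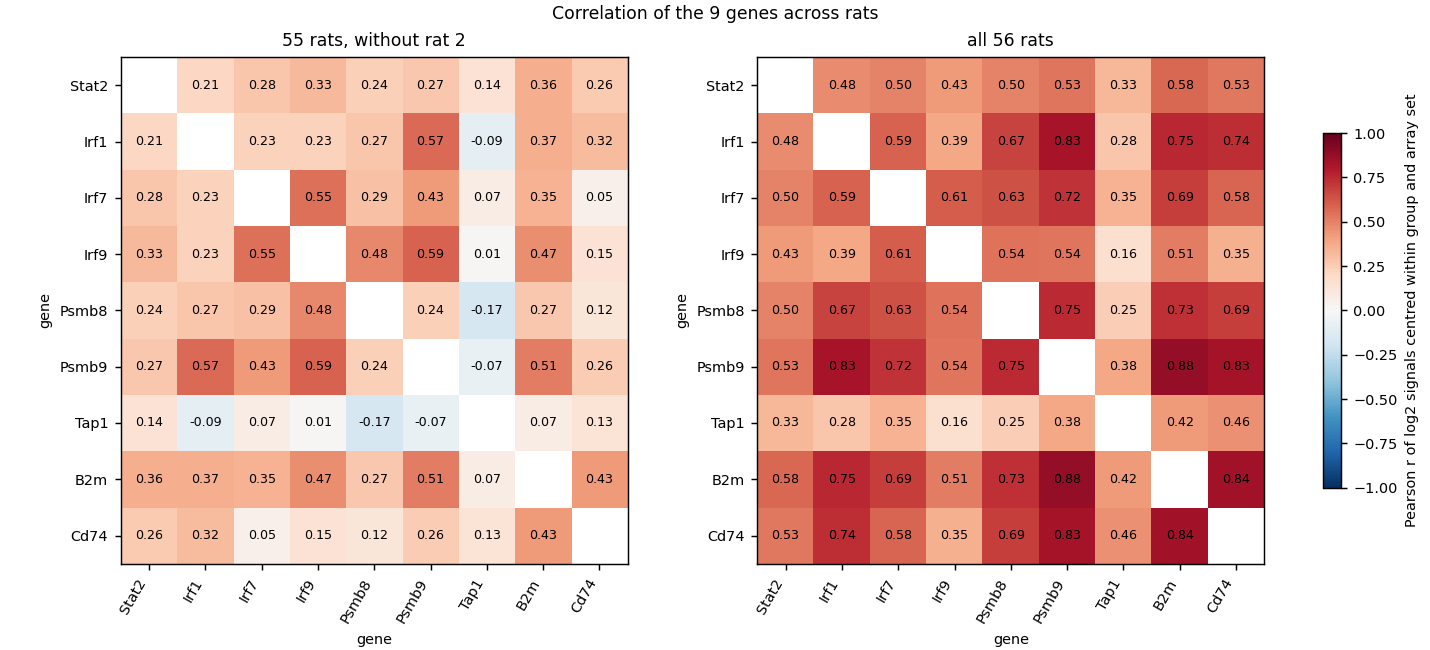
Pearson r between the 9 genes (both axes) over 55 rats without rat 2 (left) and over all 56 rats (right), on values centred within group and array set; the colour runs from -1 to 1. Irf9 with Psmb9 is the highest pair on the left (0.59), and every pair without Tap1 is at least 0.35 on the right.

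The genes most like each member were named by Pearson r over the same 55 rats, as a description. For Cd74 it was RT1-Da, the class II chain, with r = 0.90 (0.90 and 0.89 in the array sets), then the complement gene C3 with 0.66. For Irf7 these were Slfn2, Rtp4 and the deubiquitinase-like Usp18, which removes ISG15, with r = 0.72, 0.71 and 0.68. For Irf9 they were the interferon-induced GTPases Igtp and Irgm2, with 0.69 and 0.61. For Psmb9 they were Ctsz, a lysosomal cathepsin, with 0.74, and Psme1 with 0.72. For Irf1 they were Tspo and the Fc receptor gene Fcgr3a, with 0.59 and 0.57, and then Psmb9. B2m was most like Ntrk2, Map4k4 and Aldoc, with 0.80, 0.78 and 0.78, but B2m also had the highest 95th percentile of r with all tested probe sets. For Stat2 it was Dpcd (0.59), and for Psmb8 Wtip (0.60) and RT1-T24-4 (0.55). Like genes of Tap1 did not exceed 0.47.

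Rat 54, a Sham saline saline rat, was the next highest after rat 2. With rat 2 left out it was the highest of 55 rats on 5 of the 13 probe sets, those of Stat2 (7.19), Irf1 (6.38), Irf9 (6.19), Psmb8 (6.36) and Psmb9 (6.72). Rat 23 (Lesion saline saline) was highest on 3, among them Irf7 (6.67). Over all tested probe sets, with rat 2 kept in, rat 54 was highest on 3.63% and rat 23 on 2.11%. The median of the 55 rats was 1.43%. Rat 54 also had the highest scores of the 55 for microglia (0.45), leukocytes (0.63), class II presentation (0.59) and class I presentation (0.24), against 2.80, 2.13, 1.90 and 0.88 in rat 2. Its score for interferon-induced effectors was at rank 4 of the 55, at 0.22, and its Cd74 value was 6.91, below the 7.35 of rat 13. Spiny neuron markers in rats 2 and 54 averaged 0.017 and -0.035 from the mean of the 55, within the range of the other rats. Among astrocyte markers rat 54 was the highest of the 55 for Gfap (10.59), Vim (9.76) and Serpina3n (5.20, below the filter). Rat 2 was lower on each (10.52, 8.39 and 4.19). Aqp4, Gja1, Aldh1l1, Slc1a2 and Slc1a3 were highest in other rats.

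**Figure D5:**
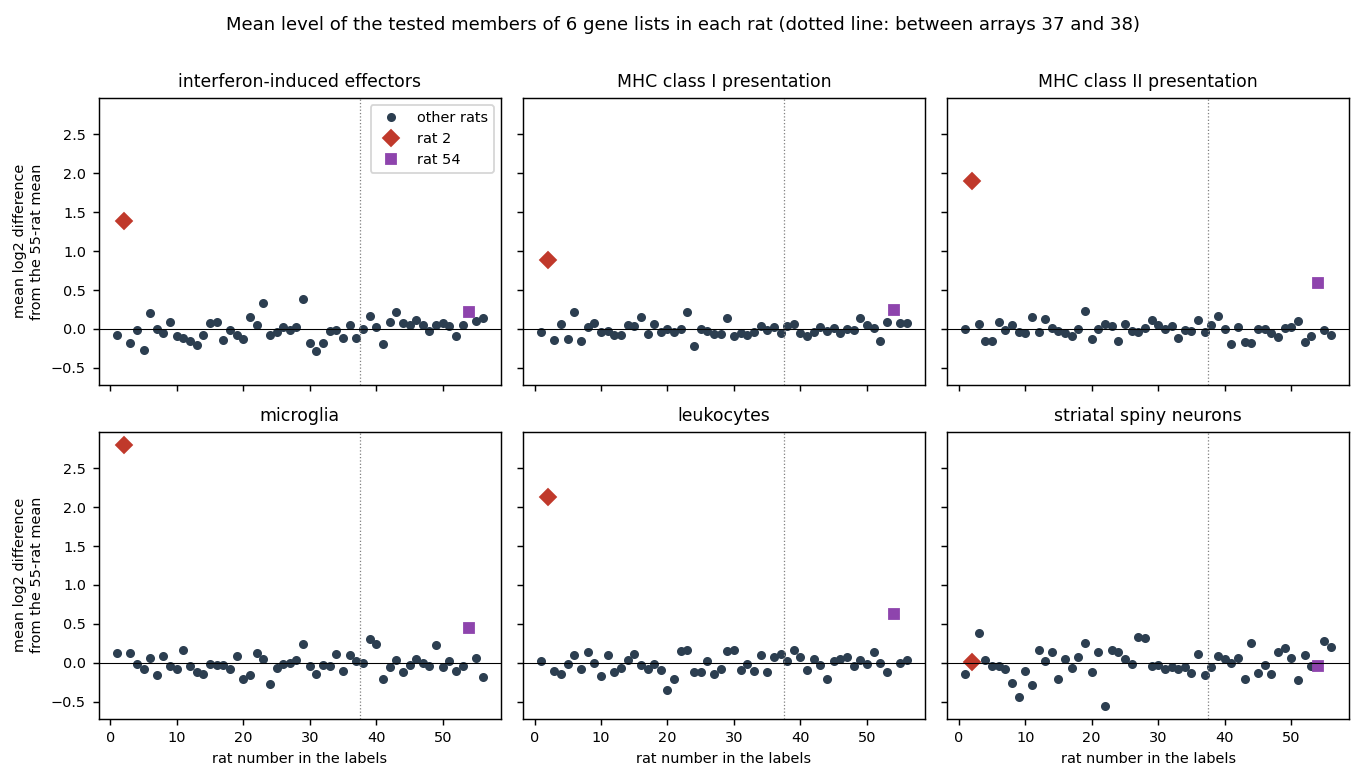
Mean log2 difference from the 55-rat mean (y axis) of the tested members of 6 gene lists, for each rat by its number in the labels (x axis); the dotted line separates arrays 37 and 38. Rat 2 (red) is the highest in the first 5 panels and in the middle for spiny neurons, and rat 54 (purple) is next for leukocytes, microglia and both presentation lists.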

How the data were processed

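Total RNA of the dorsal striatum (100 ng per rat) was hybridized to Affymetrix Rat230_2 arrays, 1 per rat. MAS5 is the tool named by the authors, per the submitters' processing notes, without a version in the sources used here. The deposited values are log2 signals, checked on the file: unlogged, their trimmed mean (2% off each end) lay between 150.042 and 150.046 on every array. Array medians lay between 5.62 and 5.82. The values were used as deposited. Low MAS5 signals scatter widely, detection calls were not used here, and precision is limited by the number of arrays.

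Probe sets were named from the array's platform annotation. Of 31042 probe sets that are not controls, 18625 with a mean above the 40th percentile were tested with limma 3.58.1 (R 4.3.3) on group means, two-sided, with Benjamini-Hochberg adjustment. Drug effects were fitted inside arrays 1 to 37 or 38 to 56, and the lesion over all rats and in rats given neither drug on all 56 arrays. RNA was extracted from each dissected sample separately, per the labels' protocols, and replicates are rats. Correlations, list scores and promoter searches used Python. Where a gene has several probe sets, the one of highest mean stands for it. A list's named genes are those called, or the 2 of smallest p in a comparison; for rat 2, those farthest above the other rats, and some others chosen after their values were seen. The 9 genes, the lists and the comparisons were chosen with earlier results of these data known. Alternatives were other filters, quantile normalization, an offset of 16, a trended prior, all arrays, the array set as a block, an RNA quality covariate and leaving out each rat. The fit was tested on simulated data.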

Additional observations from a re-analysis of the deposited data

Results flagged for a closer look

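Within each group of 7 rats, a value was marked when its gap to the nearest rat was large against the range of the group (Dixon's test). The test marks about 1 in 20 by chance, but that rate is no yardstick here. Rat 2 was singled out beforehand, and probe sets read in the same rats are not independent. Of 104 combinations of probe set and group, 15 were marked (14.4%). Rat 2 accounts for 8 of them, as the highest of Lesion L-dopa ppx: Stat2 (second probe set) at 7.43, Irf1 at 7.91, Irf7 at 8.08, Psmb8 at 8.35, Psmb9 at 8.85, both probe sets of B2m at 12.91 and 11.31, and Cd74 at 12.73. Rat 54 was the highest of Sham saline saline for Irf1 (6.38) and Psmb9 (6.72). The others were single values: rat 15 was high for Irf1 in Lesion saline ppx (6.19), rat 29 for the second probe set of B2m in Sham L-dopa ppx (9.97) and rat 1 for the dimmer Tap1 probe set in Lesion L-dopa ppx (3.04). Rat 25 was low for the dimmer Irf9 probe set in Lesion saline saline (5.35), and rat 41 for Cd74 in Sham L-dopa saline (5.04).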

How the results depend on the processing

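None of the 8 differences of member probe sets with an unadjusted p under 0.05 was called or changed direction under the alternatives run for it, and the same holds for the sign of the 9 correlated pairs. The counts of calls over all probe sets, which are the background, did move. With no filter they were 1 for L-dopa in lesioned rats, 0 for L-dopa in lesioned saline-conditioned rats, for pramipexole in lesioned rats without L-dopa and for the lesion in rats given both drugs, and 1 for pramipexole in sham rats. Above the 60th percentile they were 7 for L-dopa in lesioned rats, and 1 each for L-dopa in lesioned saline-conditioned rats and pramipexole without L-dopa. Quantile normalization gave 0 for the last of these. A trended prior gave 7 for L-dopa in lesioned saline-conditioned rats and 0 for pramipexole without L-dopa. With all 56 arrays in the fit, and with the array set as a block, L-dopa in lesioned rats had 1, pramipexole without L-dopa 0, pramipexole given L-dopa 3 and the lesion with both drugs 0; the first fit also gave 1 for L-dopa in sham rats. The block gave 0 for the lesion over all rats and in rats given neither drug. It is estimated from Sham L-dopa saline alone, so this 0 cannot separate lesion and array set. The RNA quality covariate gave 0 for L-dopa in lesioned rats and in the saline-conditioned ones, 462 for the lesion over all rats and 45 with neither drug. The lesion within arrays 1 to 37 (14 against 9 rats given L-dopa, added after seeing the data) gave 0. The cause of these shifts was not tested.

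Leaving out 1 rat at a time gave 0 to 2 calls for the interaction, 1 to 8 for L-dopa in lesioned rats (8 without rat 22), 0 to 51 in saline-conditioned ones (51 without rat 22), 0 to 1 for L-dopa in sham rats, 0 to 2 for the lesion with both drugs, 104 to 251 with neither drug (104 without rat 25), 0 to 7 for pramipexole given L-dopa (7 without rat 1) and 0 to 3 without L-dopa. The median correlation of the 9 genes was 0.54 with all 56 rats, so that value rests on rat 2. No paired analysis was possible because rat numbers are not shared between groups.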
